A study of Mus musculus with 8 samples.

Results

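The liver X receptors LXRα and LXRβ, their genes Nr1h3 and Nr1h2, and 8 target genes that move sterols and lipids were measured in mouse lung fibroblasts sorted by surface CD249. The 10 genes, out of 25509 in the deposited table, were chosen by symbol as an LXR pathway list, with the CD249+ over CD249− differences of these same libraries already known. Their differences are therefore given as a description, with no p, and support nothing beyond the values. Where a call at the adjusted p threshold of 0.05 is named for them, it describes the fit and is no test of these genes. All 10 were present in the table under a single identifier, and all 10 passed the filter on low counts.

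LXRα and LXRβ are nuclear receptors that bind oxysterols, pair with the retinoid X receptor and switch on genes that lower free cholesterol. Their best known targets encode the cholesterol exporters ABCA1 and ABCG1, the lipid acceptors and transfer proteins apolipoprotein E and PLTP, the lipogenic factor SREBP-1c (Srebf1), the ubiquitin ligase IDOL (Mylip), which degrades lipoprotein receptors, and the membrane lipid enzymes LPCAT3 and SCD1. In the lung this pathway is best studied in macrophages and in the epithelial cells that make surfactant, and alveolar fibroblasts hold neutral lipid of their own.

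Cells came from the lungs of 4 wild-type C57Bl6/J mice, numbered 2, 7, 8 and 10, and no treatment, transgene or age is given in the sources used here. From each lung, cells without CD45, CD326 and CD31 were divided into a CD249+ fraction (4 libraries) and a CD249− fraction (4 libraries), with equal cell numbers taken. CD249 is glutamyl aminopeptidase, the product of Enpep, a gene that averaged 241 ± 64.8 CPM in CD249+ libraries and 8.98 ± 5.62 CPM in CD249− libraries (SD, n = 4 each). CPM are estimated counts relative to the library total, scaled between libraries by TMM (edgeR's trimmed mean of M values). Of the genes used for the gate, Ptprc (CD45) averaged 63.1 CPM in CD249+ and 123 CPM in CD249− libraries (adjusted p = 0.0635 by edgeR's quasi-likelihood test, and 0.0126 with mouse as a block). Epcam (CD326) averaged 7.98 CPM in CD249+ and 7.46 CPM in CD249− libraries (adjusted p = 0.894), and Pecam1 (CD31) 611 CPM in CD249+ and 1667 CPM in CD249− libraries (adjusted p = 0.0017).

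Library totals ran from 28932788 to 30921169 counts in CD249+ libraries and from 23011383 to 31906414 in CD249− libraries. The fractions also differed in other cell types. Summed over 12 endothelial markers, CD249+ libraries held 3970 to 7521 CPM and CD249− libraries 12892 to 16902 CPM, and all 12 genes fell in the CD249+ fraction (edgeR adjusted p under 0.05). Summed over 7 general fibroblast markers the ranges were 13536 to 22631 CPM in CD249+ libraries and 5130 to 11090 CPM in CD249− libraries, and over 10 alveolar fibroblast markers 6382 to 12558 CPM in CD249+ and 565 to 1053 CPM in CD249− libraries. In bulk RNA of this kind, more cells of a type and more RNA per cell cannot be told apart. Against the other CD249+ libraries, that of mouse 2 was high in endothelial markers and low in general fibroblast markers, and that of mouse 10 was high in alveolar type 2 epithelial markers.

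Of the 2 receptors, LXRα differed by far the more. Nr1h3 (ENSMUSG00000002108.10, chromosome 2, 91184061 to 91202834, minus strand, GRCm38) stood at 111, 94.6, 91.4 and 91.4 CPM in the CD249+ fractions from mice 2, 7, 8 and 10, and at 12.7, 10.7, 9.09 and 10.5 CPM in the CD249− fraction of the same mice. The groups were far apart, and the lowest CD249+ library was several times the highest CD249− library. The log2 fold change was 3.17 (SE 0.13), a 9.03-fold difference, and the difference within each mouse lay between 3.11 and 3.32. Without the CD249+ library of mouse 2, the highest of its group, the log2 fold change was 3.12. Values of single libraries are given in the same order of mice from here on. In the same comparison the general fibroblast markers had a median log2 fold change of 1.36, the alveolar fibroblast markers 3.93 and the pericyte markers 2.46. Smooth muscle markers stood at 1.72, adventitial fibroblast markers at 0.29 and mesothelial markers at -1.90. The part of these cell types in the Nr1h3 difference was not tested.

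Nr1h2 (ENSMUSG00000060601.12, chromosome 7, 44549616 to 44553951, minus strand) was expressed at a similar level in both fractions. It had 146, 145, 137 and 153 CPM in the CD249+ fraction, against 164, 156, 161 and 163 CPM in the CD249− fraction. The ranges did not overlap, but the step was small, with a log2 fold change of -0.15 (SE 0.08). Its sign was negative in all 4 mice.

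Set per exon length, the receptor transcripts had a different makeup in the fractions. In RPKM (TMM-scaled CPM per kilobase of annotated exon), Nr1h3 averaged 38.6 ± 3.73 and Nr1h2 43.3 ± 1.90 in the CD249+ fraction, while Nr1h3 averaged 4.27 ± 0.588 and Nr1h2 48.0 ± 1.08 in the CD249− fraction (SD, n = 4 each). Nr1h3 thus made up 50.3%, 46.5%, 47.1% and 44.4% of summed LXR RPKM in CD249+ libraries of mice 2, 7, 8 and 10, and 9.36%, 8.40%, 7.02% and 7.88% in CD249− libraries. The sum of both receptors was 81.9 ± 4.36 RPKM in the CD249+ fraction and 52.2 ± 1.40 RPKM in the CD249− fraction (SD, n = 4 each). LXRβ transcripts were therefore the larger share in every CD249− library, and both receptors stood at nearly equal levels in CD249+ libraries. The plot of receptor RPKM by library shows this split.

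**Figure D1:**
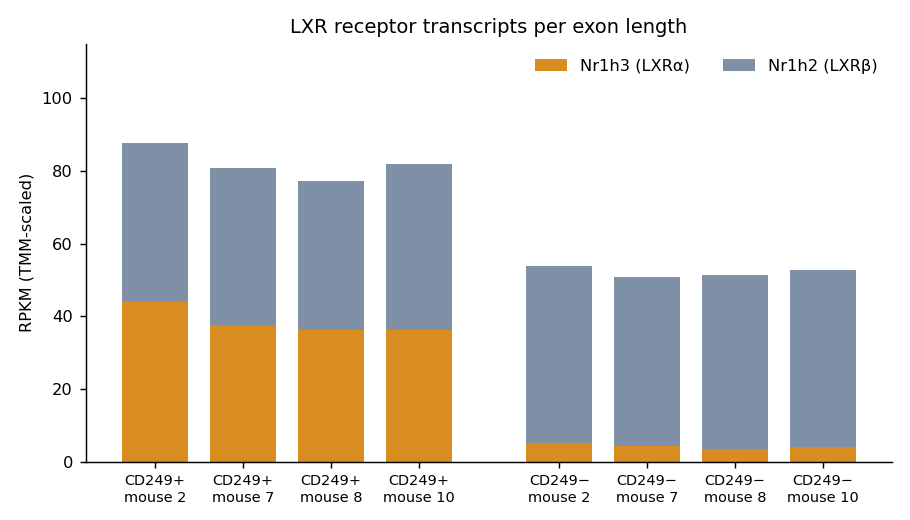
RPKM of Nr1h3 (lower part of each bar) and Nr1h2 (upper part) in each library, TMM-scaled, with CD249+ libraries on the left and CD249− libraries on the right. The Nr1h2 part is of similar height in all 8 bars, while the Nr1h3 part averages 38.6 RPKM in CD249+ and 4.27 RPKM in CD249− libraries.

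The genes of the cholesterol exporters differed in opposite directions. Abca1 (ENSMUSG00000015243.4, chromosome 4, 53030787 to 53159895, minus strand) encodes the transporter that loads cholesterol and phospholipid onto lipid-poor apolipoproteins. Its values were 103, 96.8, 88.3 and 102 CPM in the CD249+ fraction, against 47.8, 63.0, 58.8 and 58.7 CPM in the CD249− fraction. Every CD249+ library lay above every CD249− library, with a log2 fold change of 0.77 (SE 0.11) and within-mouse differences of 0.59 to 1.11.

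Abcg1 (ENSMUSG00000024030.6, chromosome 17, 31057675 to 31117988, plus strand) encodes the transporter that passes cholesterol to mature high-density lipoprotein. It had 60.2, 25.0, 25.0 and 20.2 CPM in the CD249+ fraction, against 70.5, 49.6, 58.3 and 41.5 CPM in the CD249− fraction. The ranges overlapped through the CD249+ library of mouse 2, although the CD249+ value was the lower in each of the 4 mice (log2 fold change -0.75, SE 0.33). With mouse as a block the value was -0.87 (SE 0.16), and without the CD249+ library of mouse 2 it was -1.22 (SE 0.19). The log2 fold change of Abcg1 passed the 0.05 threshold over all genes under these 2 settings and without both libraries of mouse 2 (-1.07), and not with all libraries and no block. The CD249+ library of mouse 2 also held 7521 CPM of endothelial markers, against 3970 to 4420 CPM in the other CD249+ libraries, and the endothelial list had a median log2 fold change of -1.47. The part of endothelial RNA in the Abcg1 difference was not tested.

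The ratio of Abca1 to Abcg1 in RPKM was 1.21, 2.73, 2.49 and 3.55 in CD249+ libraries of mice 2, 7, 8 and 10, and 0.477, 0.895, 0.710 and 0.995 in CD249− libraries. Abca1 was the more abundant of the pair per length in every CD249+ library and the less abundant in every CD249− library.

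Srebf1 (ENSMUSG00000020538.15, chromosome 11, 60199089 to 60222581, minus strand) encodes the SREBP-1 factors that drive fatty acid synthesis. It stood at 192, 193, 138 and 234 CPM in the CD249+ fraction and at 109, 110, 87.8 and 101 CPM in the CD249− fraction. The groups did not overlap, and the lowest CD249+ value, of mouse 8, belongs to the mouse that was also lowest in the CD249− fraction. The log2 fold change was 0.89 (SE 0.15). The deposited table gives 1 value for the gene, so its SREBP-1a and SREBP-1c transcripts were not separated, and 109 of its exon bases overlap Rai1 on the other strand.

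The promoters of Abca1 and Srebf1 are shown because, of the windows searched, theirs held a relaxed form of an LXR-type element. RefSeq promoters (GRCm38.p6, from 250 bases before to 50 bases after a start) were matched for 8 of the 10 genes, 13 windows in all. Abcg1 and Scd1 had no matched promoter and were not searched. Elements outside these windows were not looked for in any gene. The strict element, AGGTCA repeated on the same strand after 4 bases, was found in 5 of 32851 mouse promoters (0.0152%) and in none of the 13. A relaxed form, GGTNA repeated after 5 bases on either strand, which includes every strict match, was found in 236 promoters (0.718%) and in 2 of the 13. AGGTCA alone was found in 16.3% of promoters and in none of the 13. In the lines that follow, each given 5′ to 3′ on the minus strand of the genome, capitals mark the relaxed match, which reads as GGTNA on the complementary strand. It lies 53 to 67 bases before the start in Abca1 (chr4:53159846-53160145) and 168 to 182 bases before the third annotated start of Srebf1 (chr11:60210422-60210721).
Abca1: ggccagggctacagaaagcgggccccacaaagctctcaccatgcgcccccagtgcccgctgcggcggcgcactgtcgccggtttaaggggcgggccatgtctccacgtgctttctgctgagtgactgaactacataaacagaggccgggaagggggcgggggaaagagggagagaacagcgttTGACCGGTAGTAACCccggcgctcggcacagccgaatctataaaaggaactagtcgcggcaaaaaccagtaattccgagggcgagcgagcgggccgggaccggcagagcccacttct
Srebf1: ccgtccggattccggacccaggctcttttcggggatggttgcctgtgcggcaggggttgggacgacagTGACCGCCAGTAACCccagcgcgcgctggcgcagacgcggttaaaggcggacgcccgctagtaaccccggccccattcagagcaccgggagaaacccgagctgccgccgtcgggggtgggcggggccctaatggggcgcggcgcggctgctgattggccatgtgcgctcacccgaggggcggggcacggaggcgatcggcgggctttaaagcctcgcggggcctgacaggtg
Both matches share the letters TGACC and TAACC around a spacer that differs. A match is a stretch of letters and not a measured binding site, and these RNA data do not bear on binding.

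Apolipoprotein E and the phospholipid transfer protein, both secreted carriers of lipid, were the most abundant of the 10 transcripts and exchanged places between the fractions. Apoe (ENSMUSG00000002985.15, chromosome 7, 19696109 to 19699188, minus strand) was at 1908, 3064, 1757 and 2914 CPM in the CD249+ fraction, against 370, 819, 499 and 690 CPM in the CD249− fraction. Mice 7 and 10 were the higher pair in both fractions, and no CD249+ library came near the CD249− range. The log2 fold change was 2.02 (SE 0.28), a 4.06-fold difference.

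Pltp (ENSMUSG00000017754.13, chromosome 2, 164839518 to 164857711, minus strand) had 1581, 1105, 1055 and 1130 CPM in the CD249+ fraction, against 3399, 2477, 2376 and 3024 CPM in the CD249− fraction. Again the groups did not overlap, now with the CD249+ fraction the lower (log2 fold change -1.21, SE 0.18), and mouse 2 was the highest in both fractions. Without its CD249+ library the log2 fold change was -1.35. Endothelial markers were also lower in the CD249+ fraction (median log2 fold change -1.47) and highest in mouse 2 in both fractions (7521 CPM in CD249+ and 16902 CPM in CD249−), and their part in the Pltp difference was not tested. Of its 2562 exon bases, 495 overlap exons of Ctsa on the other strand, and libraries of this kind do not mark strand. The Apoe to Pltp ratio in RPKM was 2.46 ± 0.892 in the CD249+ fraction and 0.263 ± 0.109 in the CD249− fraction (SD, n = 4 each), and no library of either group came near the other group.

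Apoe is also expressed by macrophages. Summed over 14 macrophage markers, CD249+ libraries held 345 to 752 CPM and CD249− libraries 551 to 988 CPM. Of the 14, 1 fell (Fcer1g) and 13 were not called, and none was at 0 in any library, with a median log2 fold change of -0.53 (edgeR). In mouse 2, which had the largest Apoe difference (2.37), the sum was higher in the CD249+ library (752 CPM) than in the CD249− library (661 CPM), and in the other 3 mice it was lower. Other marker lists rose along with Apoe. Their median log2 fold change was 3.93 for alveolar fibroblast, 3.47 for alveolar type 2, 2.46 for pericyte, 1.72 for smooth muscle and 1.36 for general fibroblast markers. It was 0.29 for adventitial fibroblast, -0.93 for other leukocyte, -1.47 for endothelial and -1.90 for mesothelial markers. The part of RNA from macrophages or any of these cell types in the Apoe difference was not tested.

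Of the membrane lipid enzymes and the ubiquitin ligase, Lpcat3 and Mylip were lower and Scd1 higher on average in the CD249+ fraction. Lpcat3 (ENSMUSG00000004270.13, chromosome 6, 124663027 to 124704418, plus strand) encodes the acyltransferase that puts polyunsaturated chains into phospholipids. It had 74.2, 65.7, 59.0 and 79.4 CPM in the CD249+ fraction and 122, 101, 86.6 and 109 CPM in the CD249− fraction. The groups did not overlap, with CD249+ cells the lower by a log2 fold change of -0.59 (SE 0.13). Of its 3268 exon bases, 334 overlap Emg1 on the other strand.

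Mylip (ENSMUSG00000038175.9, chromosome 13, 45389742 to 45412022, plus strand) had 32.7, 33.6, 29.0 and 36.6 CPM in the CD249+ fraction and 45.7, 46.4, 32.6 and 33.3 CPM in the CD249− fraction. The ranges overlapped and the sign turned in mouse 10 (log2 fold change -0.26, SE 0.15).

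Scd1 (ENSMUSG00000037071.2, chromosome 19, 44394455 to 44407879, minus strand) encodes a desaturase that makes monounsaturated fatty acids. It had 67.3, 87.1, 86.3 and 513 CPM in the CD249+ fraction and 17.8, 38.6, 43.7 and 69.2 CPM in the CD249− fraction. The CD249+ library of mouse 10 stood far above all others, and that of mouse 2 fell inside the CD249− range. With all libraries the log2 fold change was 2.15 (SE 0.69), without the CD249+ library of mouse 10 it was 0.92 (SE 0.36), without both libraries of mouse 10 it was 1.27 (SE 0.31), and with mouse as a block 1.74 (SE 0.29). The call was lost without the CD249+ library of mouse 10 alone and kept without both libraries of mouse 10 and with the block. The difference within mice ran from 0.98 to 2.89, higher in the CD249+ fraction each time. Alveolar type 2 markers, of cells that are rich in this enzyme, summed to 11607 CPM in the CD249+ library of mouse 10, against 603 to 1339 CPM in the other CD249+ libraries and 250 to 832 CPM in CD249− libraries. Of these 10 epithelial markers 7 rose and 3 were not called, with a median log2 fold change of 3.47, and none was at 0 in any library. The part of epithelial RNA in the Scd1 difference was not tested. Scd1 values are also less certain because Scd genes are close paralogs, among which estimated counts can divide shared reads.

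**Figure D2:**
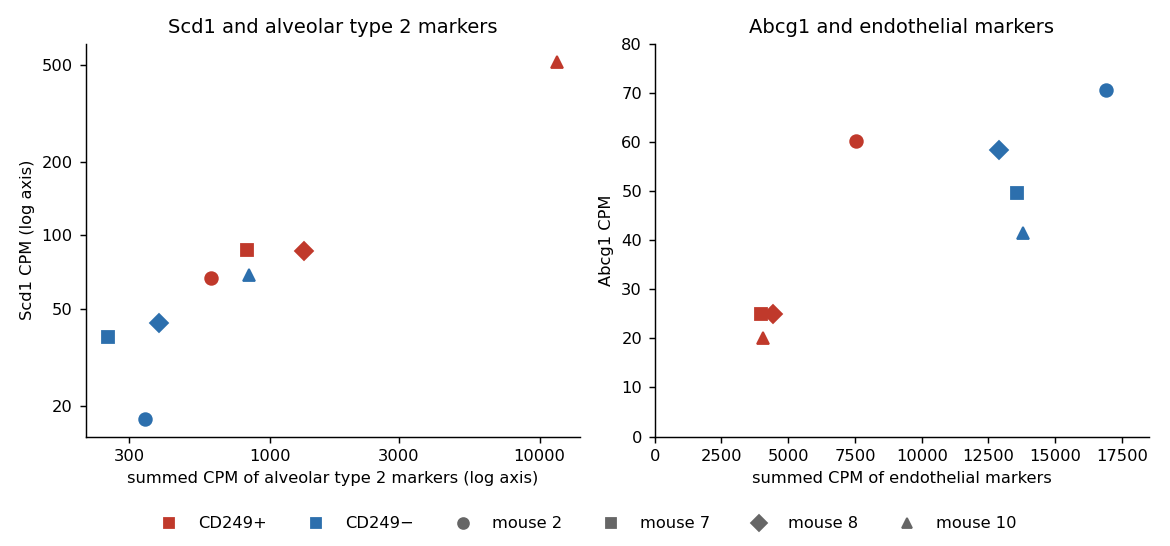
Left, Scd1 CPM against summed CPM of 10 alveolar type 2 markers, both on log axes; right, Abcg1 CPM against summed CPM of 12 endothelial markers, both on linear axes, with 1 point per library. The CD249+ library of mouse 10 stands apart on the left (513 CPM of Scd1 at 11607 CPM of markers), and that of mouse 2 is the highest CD249+ point on the right (60.2 CPM of Abcg1 at 7521 CPM).

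**Figure D3:**
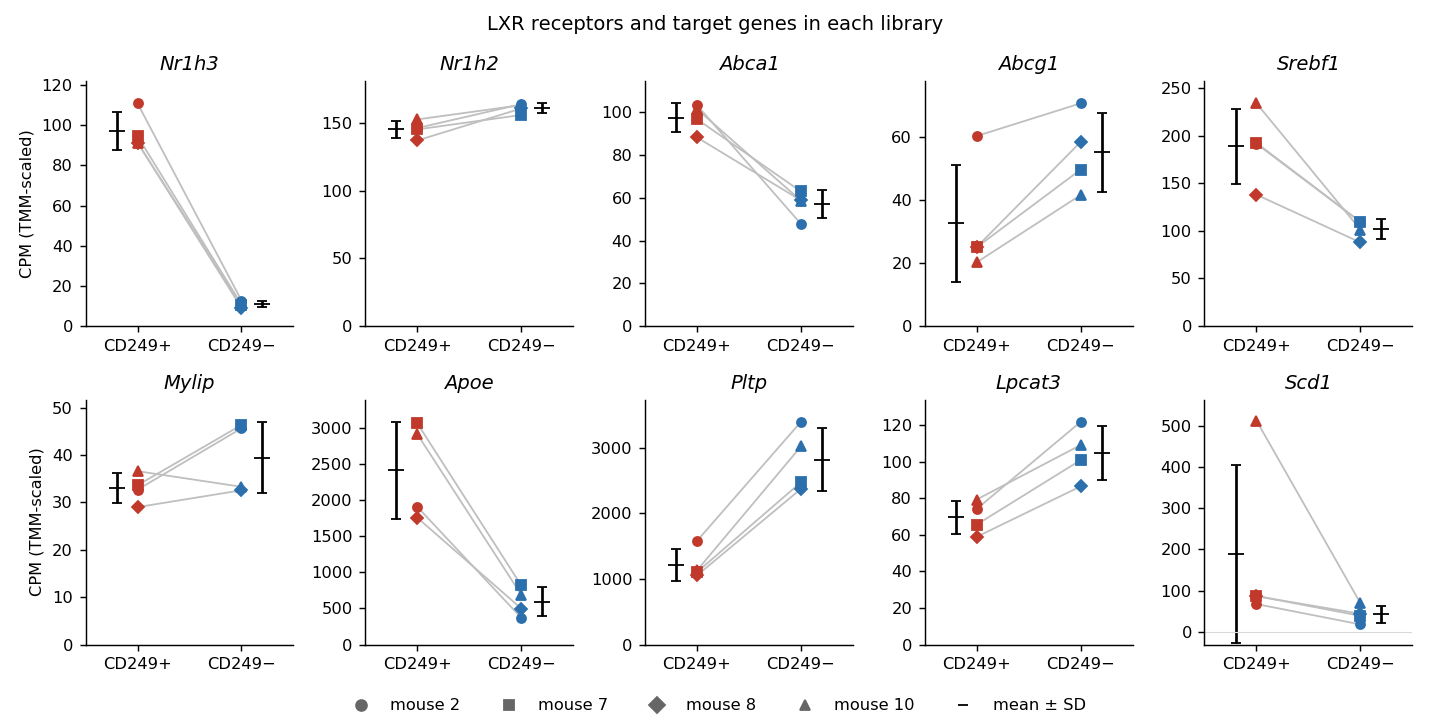
TMM-scaled CPM of each gene in CD249+ (left) and CD249− (right) libraries; a grey line joins the fractions of a mouse, and the black bar is the mean ± SD over 4 libraries. Nr1h3, Abca1, Srebf1 and Apoe lie higher in the CD249+ fraction with no overlap, and Nr1h2, Pltp and Lpcat3 lie lower with no overlap.

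Across the list, 4 genes lay wholly above and 3 wholly below the CD249− range, so 7 of 10 did not overlap, where 33.6% of the 14524 genes tested did not. In the fit over all genes, 5 of the 10 were called higher in the CD249+ fraction (Nr1h3, Apoe, Scd1, Srebf1 and Abca1) and 2 lower (Pltp and Lpcat3), and 3 were not called (Nr1h2, Abcg1 and Mylip). Among all genes tested 30.8% were called, 16.9% higher and 13.9% lower. Since the 10 genes were chosen on this contrast, nothing is read from these shares. The median log2 fold change of the 10 genes was 0.31, beside -0.02 over all genes tested.

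**Figure D4:**
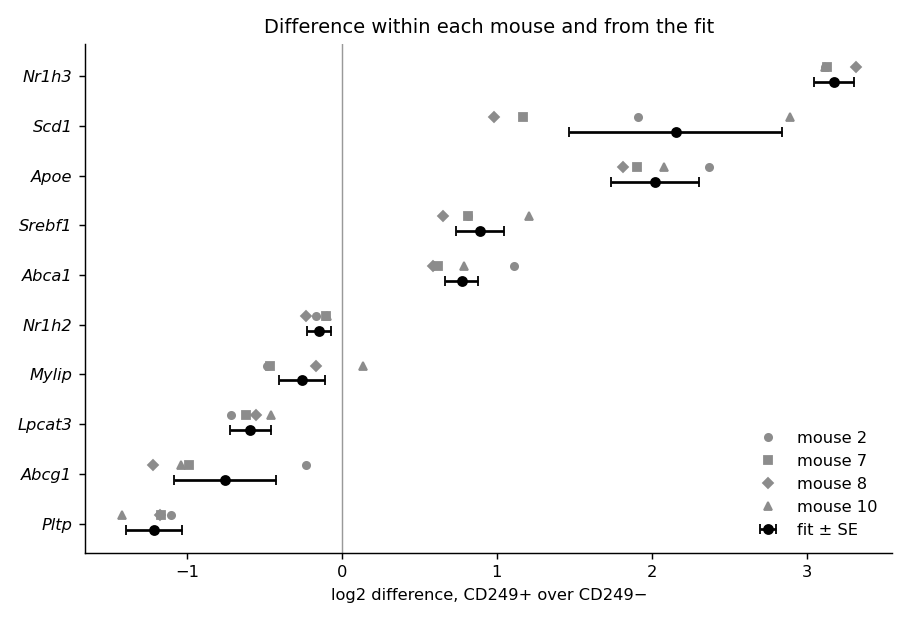
Log2 difference of CD249+ over CD249− for each gene, with grey symbols for the 4 mice and black points for the value of the fit over all 8 libraries ± SE. Values run from -1.21 for Pltp to 3.17 for Nr1h3, and Mylip is the gene whose mice lie on both sides of 0.

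The order of the 10 transcripts by RPKM differed between the fractions. In CD249+ cells it ran Apoe (1128 ± 315), Pltp (475 ± 95.4), Nr1h2, Nr1h3, Scd1 (38.5 ± 44.3), Srebf1 (33.6 ± 6.99), Lpcat3 (21.3 ± 2.77), Mylip (10.2 ± 0.969), Abca1 (9.41 ± 0.651) and Abcg1 (4.46 ± 2.54), each as mean ± SD over 4 libraries. Ranges of neighbours overlapped for Nr1h2 with Nr1h3, Nr1h3 with Scd1, Scd1 with Srebf1, and Mylip with Abca1. In CD249− cells the order was Pltp (1100 ± 187), Apoe (278 ± 93.2), Nr1h2, Lpcat3 (32.0 ± 4.53), Srebf1 (18.1 ± 1.81), Mylip (12.2 ± 2.34), Scd1 (8.65 ± 4.32), Abcg1 (7.53 ± 1.70), Abca1 (5.51 ± 0.627) and Nr1h3, again as mean ± SD over 4 libraries. There the neighbours from Mylip down to Nr1h3 overlapped in range. The place of Scd1 in the CD249+ order came from the library of mouse 10 (104.9 RPKM), since the other 3 libraries, at 13.8 to 17.8 RPKM, lay below every Lpcat3 value of that fraction. Nr1h3 was the fourth in the CD249+ fraction and last in the CD249− fraction.

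Genes with the most similar profile were found by the root mean square difference of centred log2 CPM over the 8 libraries, among 9690 named genes that averaged 10 CPM or more. For Nr1h3 the nearest were Efcc1, a gene of a coiled-coil protein (difference 0.19, log2 fold change 2.93), Vstm4 (0.20 and 3.08) and Palld, which encodes the actin-organising protein palladin (0.22 and 3.34). For Abca1 they were Bace1, the gene of the beta-secretase that cleaves the amyloid precursor (0.07 and 0.78), Fbxo4 (0.10 and 0.66) and Ncoa1 (0.11 and 0.72). For Apoe they were Cd59a, which encodes an inhibitor of complement lysis (0.16 and 2.09), C1rl (0.18 and 1.95) and Tcea3 (0.18 and 2.19). With 8 libraries in 2 groups, such a likeness rests mainly on the difference between the fractions.

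Other genes of the pathway were read from the same fit, with adjusted p values from edgeR's quasi-likelihood test over all genes. In 7 lists of 87 genes in the table, 76 could be tested, and 28 rose in the CD249+ fraction, 11 fell and 37 were not called, with a median log2 fold change of 0.19. Over all genes tested 30.8% were called, 16.9% higher and 13.9% lower, and each list count below is to be set beside these shares. The lists were chosen with earlier results of these data known, so nothing about the pathway is read from the counts. With scaling by library size alone the counts were 25 higher and 16 lower, beside 2106 higher and 2689 lower over all genes in place of 2455 and 2013. The levels given for single genes are CPM as mean ± SD over 4 libraries of each fraction. Some genes named here lie outside the naming rule and were chosen after their values were seen.

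Of 14 partners and co-regulators of LXR tested, 2 rose, 1 fell and 11 were not called (median log2 fold change 0.05), where 30.8% of all genes tested were called. Rxra, the main partner receptor, was at 112 ± 12.8 CPM in the CD249+ fraction and 103 ± 20.4 CPM in the CD249− fraction (adjusted p = 0.574), and Rxrb was at 65.0 ± 2.47 CPM in CD249+ and 71.9 ± 7.69 CPM in CD249− libraries (adjusted p = 0.306). Ncoa1, a coactivator of nuclear receptors, rose to 122 ± 7.80 CPM in the CD249+ fraction, against 74.4 ± 4.29 CPM in the CD249− fraction (log2 fold change 0.72, SE 0.09, adjusted p = 0.00026). Gps2, a subunit of the corepressor complex, fell (-0.49, SE 0.08, adjusted p = 0.00135). Rxrg rose at a low level, 2.40 ± 0.448 CPM in the CD249+ fraction and 0.413 ± 0.281 CPM in the CD249− fraction (adjusted p = 0.0123), a call lost without both libraries of mouse 10. The corepressor gene Ncor1 had a log2 fold change of -0.24 (adjusted p = 0.0997).

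Enzymes that make or break down oxysterols, the ligands of LXR, moved in both directions. Of 7 tested 4 rose, 1 fell and 2 were not called (median log2 fold change 0.97). Cyp27a1, the sterol 27-hydroxylase, rose to 85.7 ± 9.92 CPM in the CD249+ fraction, against 22.8 ± 5.63 CPM in the CD249− fraction (log2 fold change 1.91, SE 0.19, adjusted p = 7.27e-05). Cyp7b1, which inactivates 25- and 27-hydroxycholesterol, rose to 21.8 ± 6.47 CPM in CD249+ libraries, against 2.28 ± 1.00 CPM in CD249− libraries (3.25, SE 0.37, adjusted p = 0.000166). Cyp39a1 (0.97, adjusted p = 0.0216, lost in 5 alternatives) and Cyp46a1 (3.38, adjusted p = 0.0177) rose as well, the second at only 2.37 ± 0.936 CPM in the CD249+ fraction. Without the CD249− library of mouse 7, or both libraries of mouse 7 or 8, the Cyp46a1 call was lost. Hsd3b7, an enzyme of bile acid synthesis that also acts on oxysterols, fell by 0.47 on the log2 scale (SE 0.13, adjusted p = 0.0212), a call lost in 7 alternatives, each of them leaving out libraries. Ch25h, the inducible 25-hydroxylase, was at 17.7 ± 5.07 CPM in the CD249+ fraction and 13.3 ± 6.35 CPM in the CD249− fraction (adjusted p = 0.393).

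Of 16 other described LXR targets that were tested, 6 rose, 3 fell and 7 were not called (median log2 fold change 0.47). The fatty acid desaturase genes Fads1 and Fads2, which SREBP-1 also drives, rose to 286 ± 47.2 and 122 ± 34.4 CPM in the CD249+ fraction, against 105 ± 14.4 and 21.2 ± 8.85 CPM in the CD249− fraction (log2 fold changes 1.44 and 2.53, adjusted p = 8.30e-05 and 0.000273). Scd2, the second stearoyl-CoA desaturase gene, rose by 1.05 (adjusted p = 0.000845). Fasn, fatty acid synthase, rose by 1.81 (adjusted p = 0.00461, with 1.21 to 2.01 over the alternatives), with 92.6, 113, 105 and 315 CPM in the CD249+ fraction and 36.0, 49.0, 43.7 and 49.5 CPM in the CD249− fraction. As for Scd1, the highest Fasn value was in the CD249+ library of mouse 10. Apoc1 rose at a low level, 3.96 ± 2.14 CPM in the CD249+ fraction and 0.667 ± 0.299 CPM in the CD249− fraction (adjusted p = 0.00698), and Tgm2 rose by 0.54 (adjusted p = 0.00621), a call lost without both libraries of mouse 7, 8 or 10.

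Smpdl3a, a phosphodiesterase gene induced by LXR in macrophages, fell to 77.0 ± 3.92 CPM in the CD249+ fraction, against 143 ± 5.88 CPM in the CD249− fraction (log2 fold change -0.90, SE 0.08, adjusted p = 4.42e-05). The elongase gene Elovl5 (-1.13, adjusted p = 0.0018) and Vegfa (-0.70, adjusted p = 0.0205, lost in 6 alternatives) fell too. Lpl stood at -0.12 (adjusted p = 0.669). The intestinal and hepatic targets Abcg8, Nr0b2 and Cyp7a1 were at 0 in all 8 libraries, and Abcg5 and the macrophage target Cd5l did not reach the filter.

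Among 6 genes of SREBP partners and processing 3 rose, none fell and 3 were not called (median log2 fold change 0.35). Insig1, which holds SREBPs in the endoplasmic reticulum and is itself an SREBP target, rose to 58.8 ± 7.76 CPM in the CD249+ fraction, against 26.9 ± 4.04 CPM in the CD249− fraction (1.13, SE 0.14, adjusted p = 0.000276), and by 1.03 without the CD249+ library of mouse 10. The site-1 protease gene Mbtps1 rose by 0.61 (adjusted p = 0.0012). The escort protein gene Scap rose by 0.37 (adjusted p = 0.0363), a call lost in 10 of 18 alternative settings. Srebf2, the factor of cholesterol synthesis, was at 0.32 (adjusted p = 0.0706, and 0.046 with the mouse block).

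Of 5 lipoprotein receptor genes tested, 3 rose, 1 fell and 1 was not called. Vldlr, whose protein IDOL degrades, rose to 112 ± 21.9 CPM in the CD249+ fraction, against 18.5 ± 9.69 CPM in the CD249− fraction (adjusted p = 0.000288). Lrp1, a large endocytic receptor that takes up apolipoprotein E, rose to 1318 ± 147 CPM in CD249+ libraries, against 374 ± 93.5 CPM in CD249− libraries (1.82, SE 0.19, adjusted p = 0.000107). Scarb1, the receptor for high-density lipoprotein, fell to 177 ± 54.3 CPM in the CD249+ fraction, against 433 ± 79.3 CPM in the CD249− fraction (-1.29, SE 0.21, adjusted p = 0.00125). Its CD249+ values were 258, 150, 151 and 148 CPM in mice 2, 7, 8 and 10. The product of Abcg1 passes cholesterol to high-density lipoprotein. Abcg1 was lower in the CD249+ fraction of each mouse, but its ranges overlapped and it was not called in the main fit. Endothelial markers were lower in the CD249+ fraction too, and their part in the Scarb1 and Abcg1 differences was not tested.

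Of 13 genes for cholesterol trafficking and esterification 4 rose, 2 fell and 7 were not called (median log2 fold change 0.25). The lysosomal acid lipase gene Lipa rose to 153 ± 12.6 CPM in the CD249+ fraction, against 88.5 ± 6.13 CPM in the CD249− fraction (0.79, SE 0.09, adjusted p = 0.00024). Npc1, which exports cholesterol from lysosomes, rose by 0.53 (adjusted p = 0.0159), Soat1, which esterifies cholesterol, by 0.64 (adjusted p = 0.0207), and Scp2 by 0.37 (adjusted p = 0.019). These 3 calls were lost in 2, 6 and 5 of 18 alternative settings in that order. Nceh1, a neutral cholesterol ester hydrolase gene, fell by 0.73 (adjusted p = 0.00254), and the sterol carrier gene Stard4 fell by 0.85 (adjusted p = 0.00154). Apoa1, the main lipid-poor acceptor for ABCA1, did not reach the filter in these cells.

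Of 15 paralogs of the transporters and enzymes tested, 6 rose, 3 fell and 6 were not called (median log2 fold change -0.04). All 6 that rose were ABCA genes, while Abca4, Abca7 and Abca3 were not called (-1.25, -0.32 and -0.04), nor was Abcg4 (1.18). Abca8a rose to 374 ± 70.5 CPM in the CD249+ fraction, against 152 ± 40.0 CPM in the CD249− fraction (1.30, SE 0.21, adjusted p = 0.00113), Abca9 by 1.35 and Abca8b by 2.02 (adjusted p = 0.00139 and 0.00265). Abca5, Abca6 and Abca2 rose by 1.47, 1.04 and 0.59 (adjusted p = 0.00378, 0.0186 and 0.0365), and the calls of Abca6 and Abca2 were lost in 4 and 9 of 18 alternative settings. The 3 that fell were the ABCG genes Abcg3 (-1.70, SE 0.23, adjusted p = 0.000432) and Abcg2 (-0.58, adjusted p = 0.0194) and the acyltransferase gene Lpcat4 (-0.65, adjusted p = 0.0127), and the last 2 calls were lost in 3 and 1 alternatives. Whether the ABCA and ABCG families differ from each other was not tested. Abca3, a surfactant lipid transporter that is also in the alveolar type 2 list, had 88.0, 83.0, 86.1 and 217 CPM in the CD249+ fraction, against 132, 109, 129 and 119 CPM in the CD249− fraction (adjusted p = 0.932). The CD249+ value was the lower in mice 2, 7 and 8 (log2 difference -0.58, -0.39 and -0.58) and the higher in mouse 10 (0.87), whose CD249+ library was also the one high in alveolar type 2 markers. Abca8a, Abca8b and Abca9 are close paralogs, so their values are uncertain where the counting divided shared reads.

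**Figure D5:**
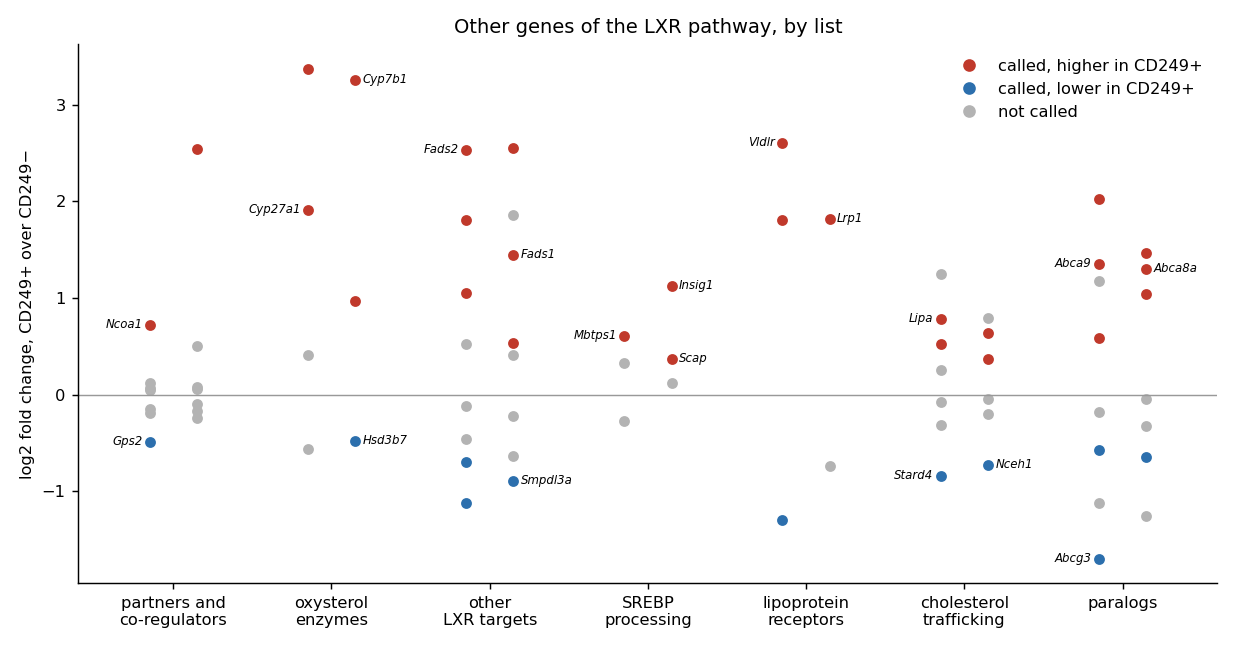
Log2 fold change of CD249+ over CD249− for 76 tested genes in 7 lists of the LXR pathway, with genes called higher in red, called lower in blue and not called in grey (edgeR adjusted p under 0.05). Of the partners and co-regulators 3 of 14 are called, with Rxrg at 2.54, Ncoa1 at 0.72 and Gps2 at -0.49, and the most negative called value of the plot is that of Abcg3 (-1.70).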

How the data were processed

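Total RNA of 8 libraries was reverse transcribed from oligo(dT) with an amplifying low-input kit from 10 ng, made into Nextera XT libraries and sequenced as 75 bp single reads, per the labels' protocols. Such libraries do not mark strand. The authors deposited estimated counts per gene (expected counts), of which 12.01% of values are not whole. Tools listed in the submitters' processing notes are RSEM 1.2.28, STAR 2.6.1, bcl2fastq 2.20, R 3.6.3 and DESeq2 1.26.0, with no roles and with a human build (GRCh38), so the build and annotation behind the counts are not given in the sources used here. The 92 spike-in entries are 0 and were left out.

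Estimated counts were rounded, filtered with filterByExpr (14524 genes kept) and scaled by TMM. CD249+ was set against CD249− over all genes with edgeR 4.0.16's quasi-likelihood test (R 4.3.3, two-sided, group as the only term, Benjamini-Hochberg adjustment, threshold 0.05). The fit was run on simulated data with known fold changes. No outcome of that run is given here, and nothing about these libraries is read from it. DESeq2 1.42.0, limma 3.58.1 (voom), other scalings, no filter, mouse as a block and leaving out each library or mouse were alternatives. Within-mouse log2 ratios used a pseudocount of 0.1 CPM, and profile likeness 0.5 CPM. Exon lengths and positions came from GENCODE M21 (GRCm38) by Ensembl identifier, and 5 of the 10 genes carry the same version there. Amplified reads carry no molecular identifiers and so are not counts of single molecules. Each SD is over libraries and includes the spread between mice. So does each SE of a fit without the block, whose variance is moderated across genes. With mouse as a block the SE leaves out the spread between mice.

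Both fractions of a number come from the same lung, so the numbers pair the libraries. The main fit did not use this pairing. With mouse as a block the SE was 0.10 for Apoe, 0.08 for Pltp and 0.11 for Abca1. In the main fit it was 0.28, 0.18 and 0.11 in that order. Taken across genes, which are not independent, each library's departure from its group mean had a correlation of 0.216 to 0.383 with that of its partner and of -0.269 to 0.0663 with those of other mice. Named genes were the 10 genes, Enpep, 3 gate genes, up to 3 called genes of each list with the smallest p and at least 10 CPM in the higher group, and the 3 nearest profiles of Nr1h3, Abca1 and Apoe. Results for some of these genes are left out here. The members and lists were chosen with earlier results of these data known.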

Additional observations from a re-analysis of the deposited data

Results flagged for a closer look

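A CD249+ value was marked where its gap to the nearest library exceeded the 95% critical value of Dixon's test for 4 libraries. Of 80 groups of 4 libraries examined, 8 were marked, and chance marks about 1 in 20. Examined were the 10 genes, up to 3 called genes of each pathway list and the marker sums. Scarb1, Fasn and Abca3 were not examined, so the marked values are not a full list. Scarb1 was highest in the CD249+ library of mouse 2 (258 CPM), and Fasn (315 CPM) and Abca3 (217 CPM) in that of mouse 10. The CD249+ library of mouse 2 was high for Nr1h3 (111 CPM), Abcg1 (60.2 CPM), Pltp (1581 CPM) and summed endothelial markers (7521 CPM), and low for summed general fibroblast markers (13536 CPM). The CD249+ library of mouse 10 was high for Scd1 (513 CPM), Insig1 (70.3 CPM) and summed alveolar type 2 markers (11607 CPM).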

How the results depend on the processing

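Of the 10 genes, 7 (Nr1h3, Abca1, Srebf1, Apoe, Pltp, Lpcat3 and Mylip) kept their direction and their side of the threshold in all 18 alternatives, and the other 3 kept their direction. The genes were chosen on this contrast, so these calls describe how the fit behaves and support nothing about the genes. Leaving out a library or a mouse gave 3.10 to 3.27 for Nr1h3, 0.69 to 0.83 for Abca1, 1.86 to 2.21 for Apoe and -1.35 to -1.10 for Pltp (log2 fold change). Abcg1 ran from -1.22 to -0.58 and was called in 3 alternatives, mouse as a block among them. Nr1h2 was called with library size only (-0.24). Scd1 ran from 0.92 to 2.50 in these settings and lost its call in 7 of 17 alternatives: limma-voom, without the CD249+ library of mouse 10, without the CD249− library of mouse 2, 7 or 8, and without both libraries of mouse 7 or 8. DESeq2 gave Scd1 no adjusted p. Of 39 called pathway genes, 25 kept their call in every alternative, 14 lost it in at least 1, and none changed sign.

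Over all genes 1777 to 2479 were called higher and 1201 to 1979 lower when a library or mouse was left out, with 1341, 1201 and 1291 lower without mouse 7, 8 or 10. The cause was not tested, and these fits hold fewer libraries. The replicate block gave 2809 higher and 2489 lower genes and 30 and 15 pathway genes, so that 6 pathway genes gained a call (2 higher, Tbl1xr1 and Srebf2, and 4 lower, among them Mertk, Gramd1a and Lpcat2). Of the 10 genes it changed only the call of Abcg1 (-0.87), and no pathway gene lost a call. Pathway counts ran from 20 to 29 higher and 8 to 13 lower when a library or mouse was left out. Depth limits genes of under 3 CPM, such as Rxrg and Cyp46a1.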
